A study of Arabidopsis thaliana with 12 samples.

Results

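The glutathione transferases of the tau (GSTU), phi (GSTF) and lambda (GSTL) classes were followed in the rosettes of *Arabidopsis thaliana* grown with and without a live soil microbiota. The 44 genes were taken by their gene identifiers from the 33610 genes counted: 28 of the tau class, 13 of the phi class and 3 of the lambda class. Holoxenic (HO) plants had received a slurry of a soil with its living microorganisms, and axenic (AX) plants the same slurry after autoclaving. Slurries of 2 soils, Malaka and MSU, gave the groups HO-Malaka, AX-Malaka, HO-MSU and AX-MSU, with 3 RNA-seq libraries each. Every plant was wild-type Col-0, 21 days old, and grown in FlowPots, peat-filled pots that are sterile until they are inoculated. A library was made from a pool of 8 rosettes out of 4 FlowPots that stood in 1 closed box, so that a replicate is a box and not a plant. Malaka soil is called Laurel in the sample descriptions, which was read as another name for it.

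Glutathione transferases join the tripeptide glutathione to reactive or toxic small molecules, or carry such molecules, and the products are moved into the vacuole by ABC transporters. The tau and phi classes expanded in plants, largely by tandem duplication, so that many members lie side by side and resemble each other in sequence. Several members are induced by salicylic acid, by pathogens or by herbicide safeners, and a few serve in the biosynthesis of defence compounds and pigments such as camalexin, glucosinolates and anthocyanins.

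The libraries held between 10211008 and 22710086 counts, of which between 65.3% and 74.8% lay on ribosomal RNA and organelle genes. Levels are given as CPM, the counts of a gene relative to the TMM-scaled size of its library, and 3 counts corresponded to between 0.134 and 0.303 CPM. The labelled tissue was checked with marker genes. The 4 leaf markers (RBCS1A, LHCB1.1, CA1 and RCA) summed to between 7636 and 9136 CPM in HO libraries and between 8676 and 9317 CPM in AX libraries, whereas 5 root markers summed to at most 0.603 CPM in HO libraries and 0.479 CPM in AX libraries, with EXPA7 and EXPA18 at 0 in all AX libraries and none at 0 in all HO libraries. The 3 flower markers summed to at most 1.1 CPM in HO libraries and 0.377 CPM in AX libraries. Groups were compared by edgeR (quasi-likelihood F test) over 17588 genes, and a gene passed at a Benjamini-Hochberg adjusted p (FDR) under 0.05. Counts at an unadjusted p under 0.05 have no share of all genes beside them, and no background given applies to them.

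Of the 44 members 24 had enough counts to be tested, 13 tau, 9 phi and 2 lambda genes. A gene needed about 0.699 CPM (before TMM scaling) in at least 3 libraries, and GSTF3, GSTF6, GSTF7 and GSTU8 reached this number through HO libraries alone, and GSTF11, GSTF12 and GSTU26 through AX libraries alone, so that a difference was built into the selection of all 7. In bulk tissue, fewer cells of a type and less RNA per cell cannot be told apart. The levels per length, CPM per kilobase of exon, ranked GSTF9 first in both treatments, with a median of 31.8 in HO and 41.8 in AX libraries. GSTU19 was second, with 26.2 in HO and 33.6 in AX libraries. GSTF8 stood at 24.2 in HO and 29.5 in AX libraries, and GSTU20 at 18.1 in HO and 31.8 in AX libraries. The ranges of these 4 genes overlapped within each treatment, so that their order is not fixed beyond the spread between libraries, and with coding length in place of exon length GSTF8 came first in both treatments. GSTF2 ranked 4 in HO and 10 in AX libraries, GSTF6 15 in HO and 19 in AX libraries, and GSTF7 16 in HO and 23 in AX libraries.

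**Figure D1:**
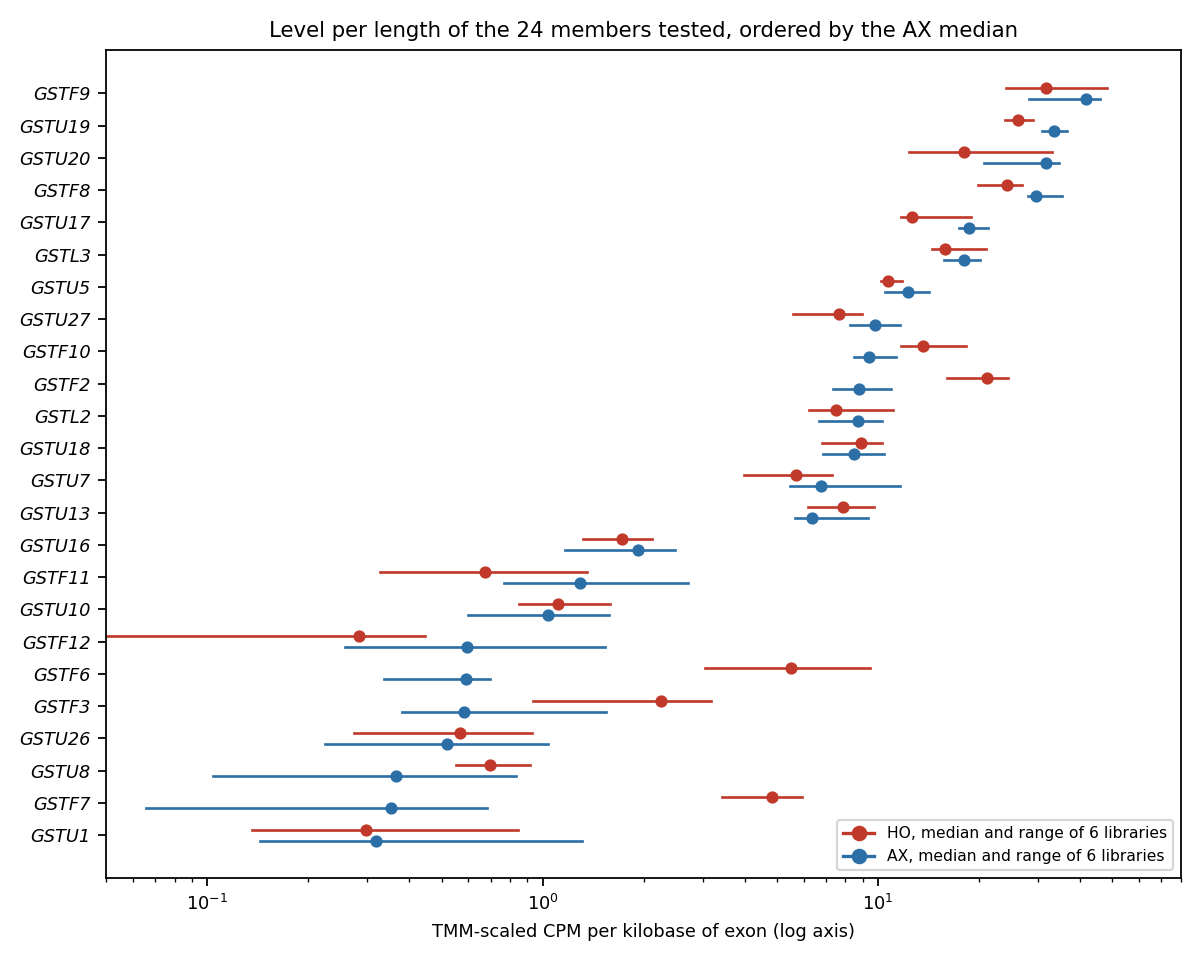
Levels of the 24 members tested on a log axis (CPM per kilobase of exon), with points for the median and lines for the range of the 6 HO (red) and 6 AX (blue) libraries. GSTF6 and GSTF7 are the members whose HO and AX ranges lie farthest apart, and the lowest GSTF12 value in HO libraries, 0, is drawn at the left edge.

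Across both soils 5 of the 24 members tested were higher in HO plants, against a background of 5.01% of all genes tested, and 6 were lower, against 5.16%. All 5 that rose were of the phi class, whereas those that fell were 4 tau and 2 phi genes. Among those that rose, GSTF3, GSTF6 and GSTF7 had entered the test through HO libraries alone. GSTF11, among those that fell, had entered through AX libraries alone. The counts and the class medians carry this selection. Under total-count scaling 424 genes rose and 935 fell, against 881 and 908 with TMM, and the median of all genes stood at -0.10 on the log2 scale. The median log2 fold change (log2FC, HO over AX) was -0.19 over the 13 tau genes and 0.56 over the 9 phi genes, beside 0.00 over all genes tested. Within Malaka 5 members were higher (background 2.49%) and 1 was lower (1.89%). In MSU plants 3 were higher (background 3.3%) and 4 were lower (3.28%). With the further requirement of a 2-fold change, a differentially expressed gene (DEG) in the sense of the study, 4 members rose across soils, against 1.56% of genes, and 1 fell, against 0.432%. Every HO library lay above every AX library in 4 of the 24 members across soils (2.52% of all genes tested), 6 in Malaka (10.1%) and 6 in MSU (12.4%), and below in 2 members across soils (1.85%), 6 in Malaka (9.11%) and 8 in MSU (12.4%).

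**Figure D2:**
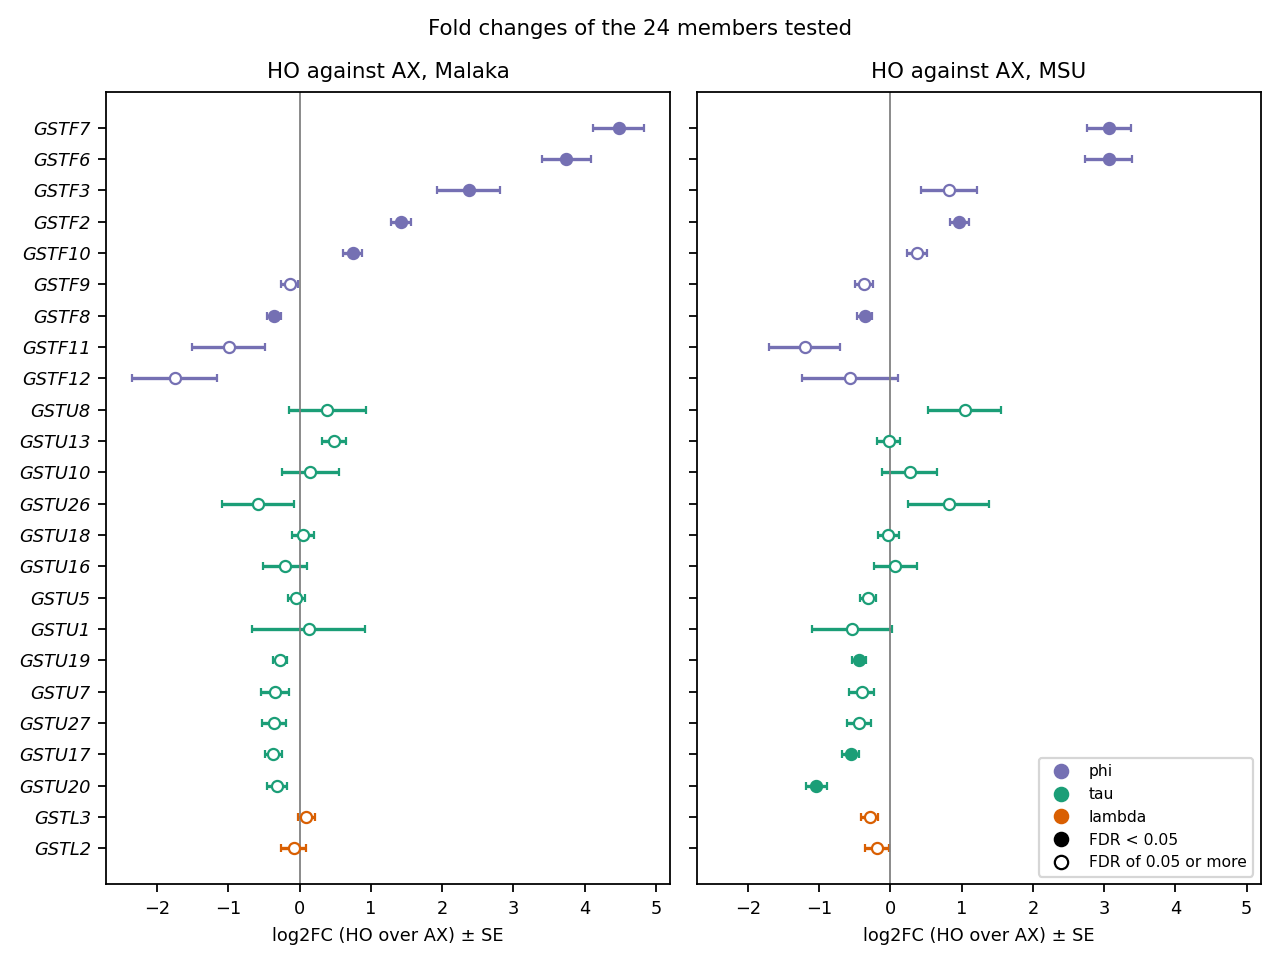
Log2 fold change of HO over AX plants with its standard error for the 24 members tested, in Malaka (left) and in MSU (right), ordered by class and by the change across both soils. Filled points passed an FDR of 0.05, 6 in Malaka and 7 in MSU, and the filled points right of 0 are phi genes.

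GSTF6 (AT1G02930) and GSTF7 (AT1G02920) are neighbours on chromosome 1 that are known as pathogen- and salicylic acid-responsive genes, and GSTF6 takes part in the synthesis of camalexin, an indole phytoalexin. GSTF7 had 7.20, 5.54 and 6.77 CPM in HO-Malaka plants, against 0.0798, 0.440 and 0.303 CPM in AX-Malaka plants. It had 5.92, 4.14 and 5.80 CPM in HO-MSU plants, against 0.417, 0.828 and 0.634 CPM in AX-MSU plants. No AX library, with between 1 and 12 counts of the gene, came near the lowest HO library. The log2FC was 4.48 ± 0.36 (SE) in Malaka (FDR = 2.4e-09) and 3.07 ± 0.30 in MSU (FDR = 4.89e-08). GSTF6 had 6.39, 6.67 and 11.2 CPM in HO-Malaka plants, against 0.399, 0.691 and 0.707 CPM in AX-Malaka plants. It had 7.02, 3.61 and 6.40 CPM in HO-MSU plants, against 0.417, 0.828 and 0.774 CPM in AX-MSU plants. Again no AX library reached an HO library. The log2FC was 3.74 ± 0.34 in Malaka (FDR = 2.32e-08) and 3.06 ± 0.33 in MSU (FDR = 2.66e-07). Across both soils, GSTF7 was 12.4-fold (log2FC 3.63 ± 0.25, FDR = 4.7e-11) and GSTF6 10.5-fold higher in HO plants (log2FC 3.39 ± 0.24, FDR = 1.04e-10). Both genes had entered the test through HO libraries alone, so that a difference was built into their selection.

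The coding sequences of GSTF6 and GSTF7 were identical at 94.3% of aligned positions, and 10.3% of the 50-base windows (the read length) in the GSTF6 exons occurred also in GSTF7. Of the windows in the joined coding sequence of GSTF6, 100 of 578 (17.3%) occurred in that of GSTF7. Reads from such windows could be given to either gene or dropped, and how the authors treated them is not given in the sources used here. The remaining exon windows were unique in the genome, and both genes rose. The longest identical stretch of the coding sequences, 116 bases from coding base 310 of GSTF6 and 313 of GSTF7, is shown because a 50-base read inside it cannot be assigned to one gene.
GSTF6 and GSTF7, shared coding run: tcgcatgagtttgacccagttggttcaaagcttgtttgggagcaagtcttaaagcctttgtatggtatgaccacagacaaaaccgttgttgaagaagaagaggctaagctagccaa

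The sequences upstream of GSTF7, GSTF3 and GSTF10, members that rose, are printed to show where the letters of 2 known elements occur. They are the 250 bases before the annotated start on the coding strand of TAIR10, chr1:659981-660230 (minus strand), chr2:852322-852571 (minus strand) and chr2:13141040-13141289 (plus strand). Those of GSTF2 and GSTF8 run into a neighbouring gene and are not shown. Capitals mark TTGAC, the core of the W-box bound by WRKY factors, and TGACG, the core of the site bound by TGA factors, on either strand (GTCAA and CGTCA on the other).
GSTF7: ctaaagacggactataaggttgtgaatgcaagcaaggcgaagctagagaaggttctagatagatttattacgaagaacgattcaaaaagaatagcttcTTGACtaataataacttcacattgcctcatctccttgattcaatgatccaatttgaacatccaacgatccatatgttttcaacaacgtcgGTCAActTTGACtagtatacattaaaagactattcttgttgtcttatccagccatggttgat
GSTF3: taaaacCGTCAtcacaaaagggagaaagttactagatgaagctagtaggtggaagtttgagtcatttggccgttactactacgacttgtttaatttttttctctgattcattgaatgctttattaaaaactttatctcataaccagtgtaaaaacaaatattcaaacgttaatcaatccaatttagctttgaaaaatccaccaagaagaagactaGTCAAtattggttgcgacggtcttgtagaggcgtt
GSTF10: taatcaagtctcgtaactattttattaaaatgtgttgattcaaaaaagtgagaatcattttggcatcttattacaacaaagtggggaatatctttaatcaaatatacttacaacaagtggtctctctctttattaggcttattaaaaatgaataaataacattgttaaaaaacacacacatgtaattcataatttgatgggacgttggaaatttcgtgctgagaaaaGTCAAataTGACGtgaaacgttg
In these windows TTGAC occurred 3 times upstream of GSTF7 and once upstream of GSTF3 and GSTF10, and TGACG once upstream of GSTF3 and GSTF10. Counted from 250 bases before to 50 bases after the start, 28 of the 44 members (63.6%) held TTGAC, beside 50.5% of 27443 promoters, and 18 members (40.9%) held TGACG, beside 23.1%. The 2 motifs overlapped as TTGACG in 1 member, GSTU5 (2.27%), and in 8.79% of promoters. Both groups of members held TGACG: GSTF3 and GSTF10 among those that rose, and GSTU19, GSTU20, GSTU27 and GSTF8 among those that fell. Both also held TTGAC: GSTF3, GSTF6, GSTF7 and GSTF10 among those that rose, and GSTU17, GSTU19, GSTU20 and GSTU27 among those that fell. Neither motif occurred in GSTF2, which rose, or in GSTF11, which fell. A match of letters is no evidence of binding.

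GSTF2, GSTF3 and GSTF10 were the other phi members that rose. GSTF2 (AT4G02520) encodes a protein that binds indole compounds, camalexin among them. It had 35.7, 26.8 and 35.9 CPM in HO-Malaka plants, against 12.9, 13.0 and 10.8 CPM in AX-Malaka plants. In MSU it had 31.4, 23.7 and 30.5 CPM in HO plants, against 16.1, 12.1 and 15.3 CPM in AX plants. Every HO value exceeded every AX value. The log2FC was 1.42 ± 0.14 in Malaka (FDR = 4.41e-08) and 0.97 ± 0.13 in MSU (FDR = 8.88e-06), and 1.19 ± 0.10 across soils (FDR = 5.67e-09), so that GSTF2, though the change was smaller than in GSTF6 and GSTF7, was the member with the largest gain in CPM, with a mean ± SD of 30.7 ± 4.84 CPM over 6 HO libraries and 13.3 ± 1.98 CPM over 6 AX libraries. Its exons overlap those of AT4G02510 on the other strand over 890 bases. The libraries were stranded, but whether counting used the strand is not given in the sources used here, so reads of the partner may be included.

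GSTF3 (AT2G02930) lies on chromosome 2 and is 94.5% identical to GSTF2 in coding sequence. In the joined coding sequences 35 of 590 windows of 50 bases were in common, and 0 of the windows inside single exons. It had 2.50, 1.88 and 3.31 CPM in HO-Malaka plants, against 0.399, 0.566 and 0.505 CPM in AX-Malaka plants. It had 2.38, 0.980 and 2.34 CPM in HO-MSU plants, against 0.655, 0.897 and 1.62 CPM in AX-MSU plants. The groups were apart in Malaka and overlapped in MSU. GSTF3 too had entered the test through HO libraries alone. The log2FC was 2.37 ± 0.45 in Malaka (FDR = 0.00099) and 0.82 ± 0.39 in MSU (FDR = 0.249), and 1.49 ± 0.32 across soils (FDR = 0.0022). The longest stretch shared with GSTF2, 74 bases from coding base 163 of both genes, is shown because reads of the more abundant GSTF2 inside it could have been counted on GSTF3.
GSTF2 and GSTF3, shared coding run: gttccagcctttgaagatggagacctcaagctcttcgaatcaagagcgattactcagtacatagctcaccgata

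GSTF10 (AT2G30870), first found as a gene induced by dehydration (ERD13), had 17.6, 15.2 and 20.7 CPM in HO-Malaka plants, against 11.7, 9.61 and 10.9 CPM in AX-Malaka plants. It had 15.6, 13.2 and 14.2 CPM in HO-MSU plants, against 12.8, 10.4 and 9.79 CPM in AX-MSU plants. No AX library reached an HO library in either soil, and across soils the lowest HO value, 13.2 CPM, stood just above the highest AX value, 12.8 CPM. The log2FC was 0.74 ± 0.14 in Malaka (FDR = 0.000853) and 0.37 ± 0.13 in MSU (FDR = 0.101), and 0.56 ± 0.10 across soils (FDR = 0.000401). Without AX-MSU replicate 1 the change in MSU passed, with a log2FC of 0.50 (FDR = 0.0426), and without AX-MSU replicate 3 it was 0.30 (FDR = 0.331).

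**Figure D3:**
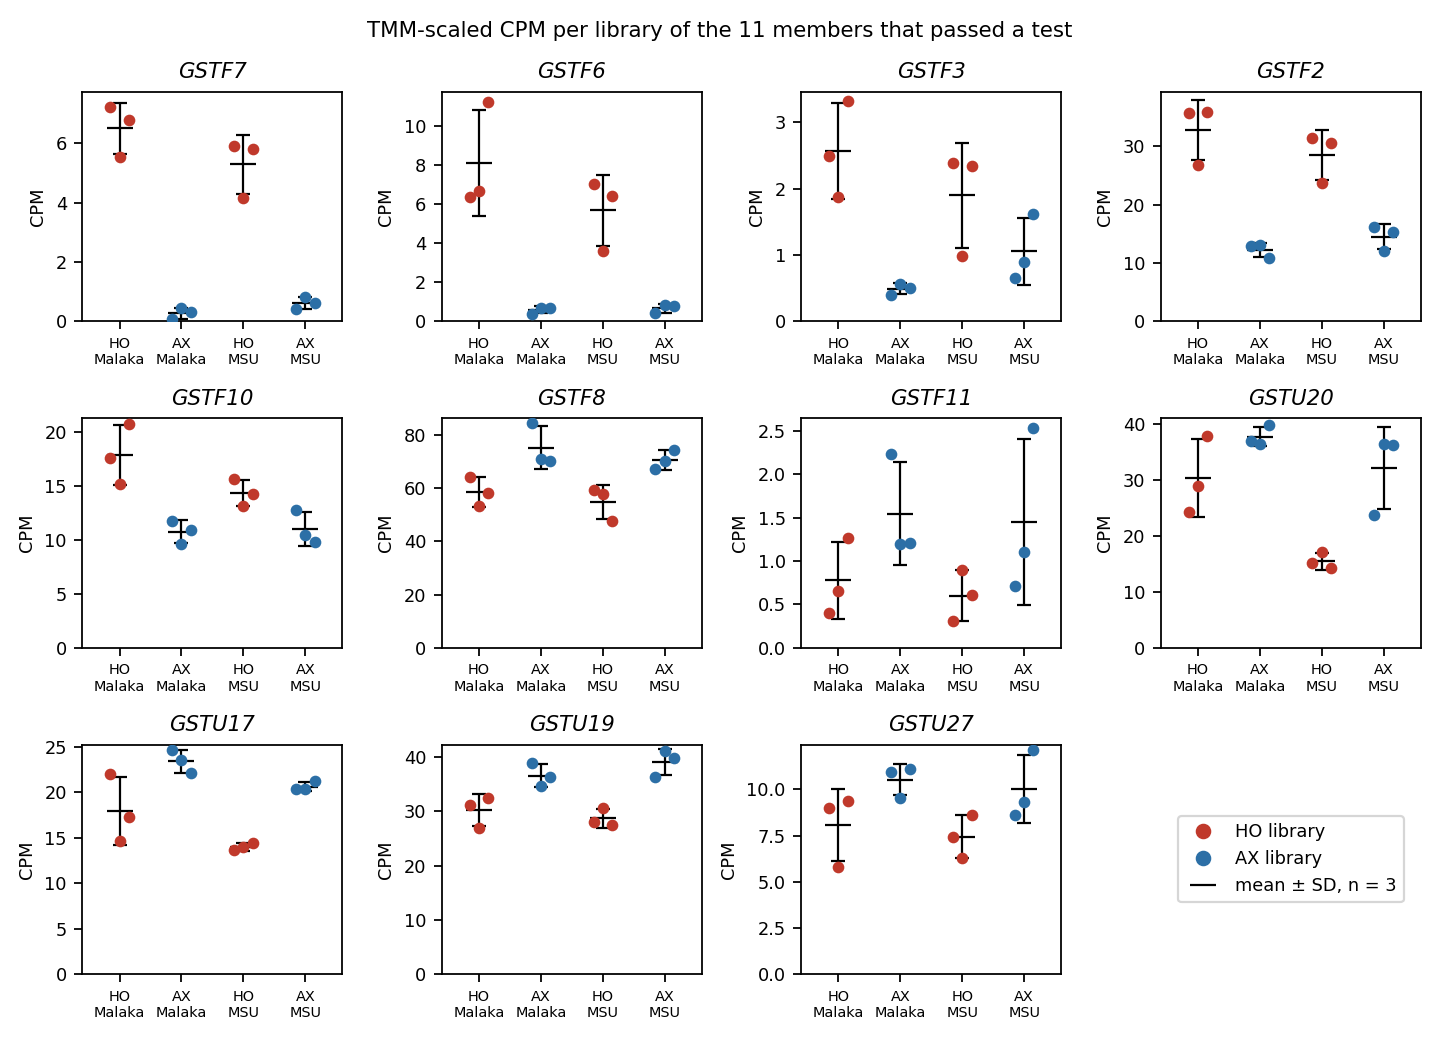
CPM of the 11 members that passed a test in HO against AX plants, by group, with a point for each library (HO red, AX blue) and bars for the mean ± SD of 3 libraries. GSTF7, GSTF6, GSTF2 and GSTF10 show every HO point above every AX point, and GSTF8 and GSTU19 every HO point below every AX point.

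GSTF8 and GSTF11 were the phi members that fell. GSTF8 (AT2G47730) encodes a plastid enzyme and is itself a much-studied stress-responsive gene. It had 64.2, 53.3 and 58.2 CPM in HO-Malaka plants, against 84.5, 70.9 and 70.3 CPM in AX-Malaka plants. It had 59.2, 57.8 and 47.5 CPM in HO-MSU plants, against 67.3, 70.1 and 74.5 CPM in AX-MSU plants. All HO libraries lay below all AX libraries. The log2FC was -0.36 ± 0.07 across soils (FDR = 0.00124), -0.36 ± 0.10 in Malaka (FDR = 0.0417) and -0.36 ± 0.10 in MSU (FDR = 0.0283). The call across soils held without any 1 library. The Malaka call was lost in 7 of 12 such fits (all 3 AX-Malaka replicates, HO-Malaka replicates 2 and 3, and replicate 2 of HO-MSU and AX-MSU), with FDR values between 0.0527 and 0.241, and the MSU call in 4 (replicates 2 and 3 of HO-MSU and AX-MSU), between 0.0529 and 0.216. The exons share 219 bases with AT2G47720 on the same strand.

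GSTF11 (AT3G03190), assigned to the synthesis of aliphatic glucosinolates, had few counts, between 5 and 20 in HO and between 12 and 36 in AX libraries. It had 0.407, 0.658 and 1.27 CPM in HO-Malaka plants, against 2.23, 1.19 and 1.21 CPM in AX-Malaka plants. It had 0.305, 0.891 and 0.603 CPM in HO-MSU plants, against 0.715, 1.1 and 2.53 CPM in AX-MSU plants. The groups overlapped in both soils, and GSTF11 had entered the test through AX libraries alone. The log2FC across soils was -1.10 ± 0.35 (FDR = 0.0449), and no call was made within a soil (-1.0 ± 0.51 in Malaka, FDR = 0.329, and -1.20 ± 0.50 in MSU, FDR = 0.171). The call was lost in 7 of 12 fits that left out a library (HO-Malaka replicates 1 and 2, HO-MSU replicates 1 and 3, AX-Malaka replicate 1, AX-MSU replicates 2 and 3), with FDR values between 0.0533 and 0.214, and with DESeq2 (adjusted p = 0.0576). All 934 bases of the GSTF11 exons overlap AT3G03200 on the other strand, so that its reads may be mixed with those of that gene.

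The other phi members tested, GSTF9 and GSTF12, did not pass. GSTF9 (AT2G30860), the member with the highest median level per kilobase of exon though not of coding sequence, had a log2FC of -0.25 ± 0.09 across soils (FDR = 0.0711). GSTF12 (AT5G17220), known as TT19 and needed to bring anthocyanins to the vacuole, had 0.232, 0.470 and 0.353 CPM in HO-Malaka plants, against 1.68, 0.817 and 1.01 CPM in AX-Malaka plants, which did not overlap (log2FC -1.75 ± 0.60, FDR = 0.0999). In MSU it had 0.488, 0.267 and 0 CPM in HO plants, against 0.417, 0.483 and 0.282 CPM in AX plants (log2FC -0.56 ± 0.67, FDR = 0.731). GSTF12 had entered the test through AX libraries alone, by these levels those of AX-Malaka, so that a difference in Malaka was built into its selection.

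In the tau class the calls were decreases. Of 13 members tested, 4 were lower across soils (background 5.16%), GSTU17, GSTU19, GSTU20 and GSTU27. Higher calls across soils (background 5.01%) numbered 0 with edgeR, also 0 at an unadjusted p under 0.05, and 0 with DESeq2. In MSU 3 were lower (background 3.28%), GSTU17, GSTU19 and GSTU20. In Malaka 0 passed with edgeR or DESeq2 (edgeR background 1.89% lower). At an unadjusted p under 0.05 edgeR placed 4 lower and 1 higher in Malaka, counts that have no share of all genes beside them. The summed level of the 28 tau genes was 130.2 ± 13.4 CPM in HO-Malaka plants, against 150.0 ± 2.50 CPM in AX-Malaka plants, and 110.7 ± 1.43 CPM in HO-MSU plants, against 151.9 ± 8.96 CPM in AX-MSU plants (SD, n = 3 each). The HO libraries lay below the AX libraries in both soils. These sums include the 4 tau genes called across soils, so they are no separate result about the class, and no share of all genes applies to them. Of the 13 tau members tested, 5 had a log2FC above 0 across soils and 8 below. The summed phi level was 177.8 ± 19.2 CPM in HO-Malaka plants, against 157.6 ± 11.5 CPM in AX-Malaka plants, and 145.3 ± 11.8 CPM in HO-MSU plants, against 144.0 ± 9.49 CPM in AX-MSU plants, with overlap in both soils.

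GSTU20 (AT1G78370), also known as FIP1 for its interaction with the jasmonate-conjugating enzyme FIN219 (JAR1), had the largest change among the 4 tau genes that passed, with a log2FC of -0.67 ± 0.12 across soils (FDR = 0.000422). It had 15.1, 17.2 and 14.2 CPM in HO-MSU plants, against 23.8, 36.4 and 36.3 CPM in AX-MSU plants. It had 24.2, 28.9 and 37.9 CPM in HO-Malaka plants, against 37.0, 36.5 and 39.8 CPM in AX-Malaka plants. HO-MSU libraries were all below AX-MSU libraries, while HO-Malaka replicate 3 lay among the AX-Malaka libraries. The log2FC was -1.04 ± 0.14 in MSU (FDR = 1.35e-05) and -0.32 ± 0.14 in Malaka (FDR = 0.242). Without HO-Malaka replicate 3 the Malaka change passed, with a log2FC of -0.51 (FDR = 0.0464), and without HO-Malaka replicate 1 it was -0.17 (FDR = 0.634).

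GSTU17 (AT1G10370), a gene linked to abscisic acid and drought responses, had 13.6, 14.0 and 14.5 CPM in HO-MSU plants, against 20.3, 20.4 and 21.2 CPM in AX-MSU plants. It had 22.0, 14.7 and 17.3 CPM in HO-Malaka plants, against 24.7, 23.5 and 22.1 CPM in AX-Malaka plants. HO libraries lay below AX libraries within each soil, in Malaka by a small margin at HO-Malaka replicate 1. The log2FC was -0.56 ± 0.12 in MSU (FDR = 0.00266) and -0.37 ± 0.12 in Malaka (FDR = 0.0743), where it passed without HO-Malaka replicate 1 (-0.55, FDR = 0.0041) and was -0.25 without HO-Malaka replicate 2 (FDR = 0.252). Across soils it was -0.46 ± 0.09 (FDR = 0.000438).

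GSTU19 (AT1G78380), an abundant enzyme induced by herbicide safeners, had 28.0, 30.7 and 27.4 CPM in HO-MSU plants, against 36.4, 41.1 and 39.8 CPM in AX-MSU plants. It had 31.1, 26.9 and 32.5 CPM in HO-Malaka plants, against 38.9, 34.6 and 36.2 CPM in AX-Malaka plants. All 6 HO libraries were below all 6 AX libraries, by a modest amount. The log2FC was -0.44 ± 0.10 in MSU (FDR = 0.00316), -0.27 ± 0.10 in Malaka (FDR = 0.126) and -0.36 ± 0.07 across soils (FDR = 0.000891).

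GSTU27 (AT3G43800), which lies alone on chromosome 3, had 7.45, 6.28 and 8.59 CPM in HO-MSU plants, against 8.64, 9.31 and 12.1 CPM in AX-MSU plants. It had 9.0, 5.82 and 9.38 CPM in HO-Malaka plants, against 10.9, 9.55 and 11.1 CPM in AX-Malaka plants. HO libraries lay below AX libraries within each soil by small margins. The log2FC was -0.44 ± 0.17 in MSU (FDR = 0.125) and -0.36 ± 0.17 in Malaka (FDR = 0.295). It averaged 7.75 ± 1.48 CPM (SD) over 6 HO libraries and 10.3 ± 1.31 CPM over 6 AX libraries, with overlap across soils, and its log2FC of -0.40 ± 0.12 across soils had an FDR of 0.0293. The call was lost in 6 of 12 fits that left out a library (HO-Malaka replicate 2, HO-MSU replicates 1 and 2, AX-Malaka replicates 1 and 3, AX-MSU replicate 3), with FDR values between 0.0565 and 0.113, and its 95% interval ran between -0.64 and -0.15.

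The 9 other tau members tested were GSTU1, GSTU5, GSTU7, GSTU8, GSTU10, GSTU13, GSTU16, GSTU18 and GSTU26, with log2FC values across soils between -0.38 (GSTU7) and 0.73 (GSTU8). GSTU7 was nearest to the threshold, with an FDR of 0.0543, and 611 bases of its exons overlap genes on the other strand. GSTU13, reported to act in the metabolism of indole glucosinolates, had a log2FC of 0.48 ± 0.16 in Malaka, where the groups did not overlap (FDR = 0.102), and -0.03 ± 0.16 in MSU (FDR = 0.961). GSTU8 was at 0.73 ± 0.37 (FDR = 0.248) with between 8 and 28 counts in HO and between 2 and 18 counts in AX libraries. The lambda class, whose enzymes reduce glutathione adducts of flavonols rather than form them, had no call in any comparison by edgeR or DESeq2, with log2FC values across soils of -0.14 ± 0.12 for GSTL2 and -0.10 ± 0.09 for GSTL3. At an unadjusted p under 0.05, edgeR placed 1 lambda gene lower in MSU and 0 in Malaka or across soils.

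Of the 44 members, 31 lie in 10 tandem clusters, in which at most 3 other genes separate neighbours. In the cluster GSTF7-GSTF6-GSTF5-GSTF4 (chr1:658578-666471) the first 2 genes rose, while GSTF5 had 1 count in all HO libraries together and 3 in all AX libraries, and GSTF4 had 5 counts in HO and 14 in AX libraries. In GSTU23-GSTU22-GSTU21-GSTU20-GSTU19 (chr1:29467412-29488007) the last 2 fell and the other 3 had at most 4 counts in a library. In GSTU18-GSTU17 (chr1:3395551-3398358) GSTU17 fell and GSTU18 had a log2FC of 0.01 ± 0.11. In GSTF9-GSTF10 (chr2:13138882-13142676) GSTF10 rose and GSTF9 did not pass. The largest cluster, GSTU7 to GSTU1 (chr2:12617936-12632538), had 7 members, 3 tested and 0 called across soils, in Malaka or in MSU with edgeR or DESeq2; at an unadjusted p under 0.05 GSTU5 and GSTU7 were lower across soils and in MSU. The 5 others, GSTU24-GSTU25-GSTU26, GSTU13-GSTU14, GSTU15-GSTU16, GSTU12-GSTU11 and GSTL1-GSTL3, had no call between HO and AX plants either, and 0 of their tested members reached an unadjusted p under 0.05 across soils (GSTU13 did in Malaka and GSTL3 in MSU).

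**Figure D4:**
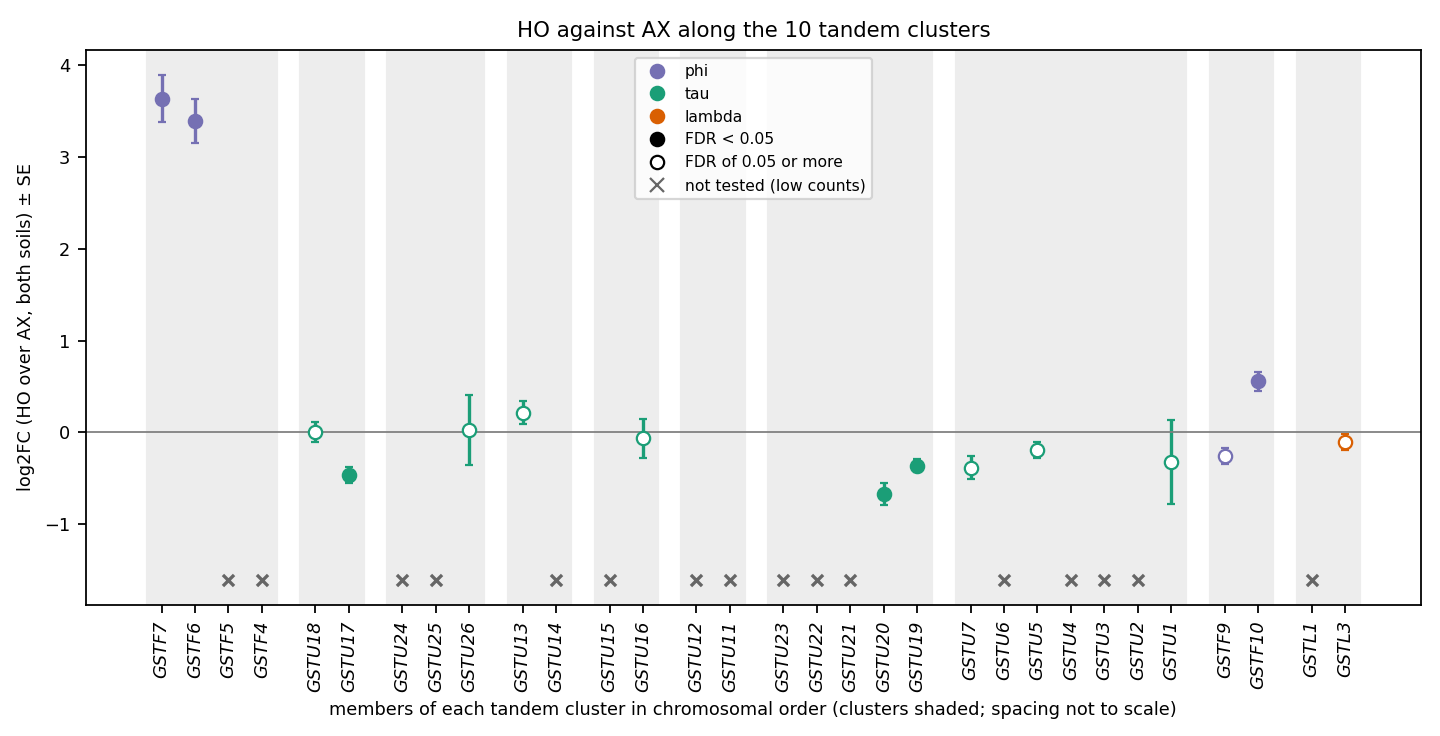
Log2 fold change of HO over AX plants across both soils with its standard error for each member of the 10 tandem clusters, in chromosomal order. Filled points passed an FDR of 0.05, open points did not, and crosses mark the members that were not tested; GSTF7 and GSTF6 stand at 3.63 and 3.39, and no other clustered member is above 0.56.

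Whether neighbours moved apart was tested on the log2 ratio of their counts within each library, for the 6 pairs of neighbouring tested members. Each count had 1 added to it. No scaling enters such a ratio, but at low counts, as of GSTF7 and GSTF6 in AX libraries, the added 1 shifts it with depth. The measure was chosen after the values of the pairs had been seen. The log2 ratio of GSTF10 to GSTF9 was between -1.66 and -1.06 in HO libraries and between -2.48 and -1.43 in AX libraries. Only AX-MSU replicate 1, at -1.43, lay within the HO range. The mean difference was 0.81 (exact two-sided permutation test within soils, p = 0.005, the smallest that 400 arrangements allow, adjusted p = 0.015 over 6 pairs). The ratio of GSTU17 to GSTU18 was between 0.38 and 1.23 in HO libraries and between 0.94 and 1.65 in AX libraries, a mean difference of -0.49 (exact permutation p = 0.005, adjusted p = 0.015), and within each soil the libraries did not overlap. These 2 genes share 71 exon bases on the same strand. For GSTF7 to GSTF6 the mean difference was 0.41 (adjusted p = 0.15) and for GSTU20 to GSTU19 -0.32 (adjusted p = 0.14), by the same exact permutation test. GSTU20 to GSTU19 reached an adjusted p of 0.03 by the same permutation test without HO-Malaka replicate 3, and its mean difference lay between -0.40 and -0.23 over the fits that left out a library.

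**Figure D5:**
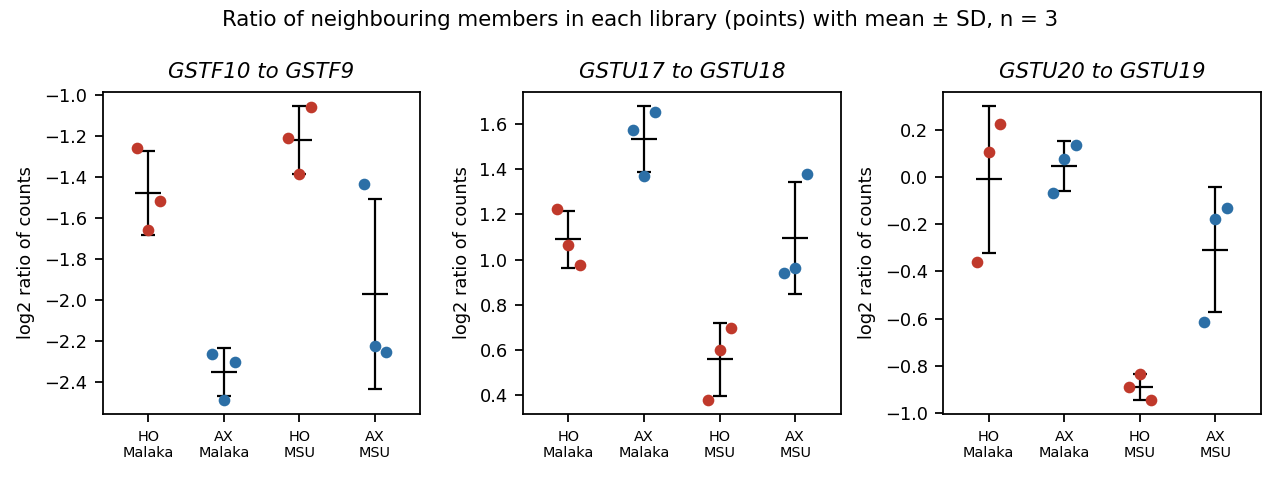
Log2 ratio of the counts of 2 neighbouring members in each library (points, HO red and AX blue) with the mean ± SD of 3 libraries, by group. GSTF10 to GSTF9 lies higher in HO than in AX libraries of each soil and GSTU17 to GSTU18 lower, whereas for GSTU20 to GSTU19 the HO-MSU libraries, at -0.83 or lower, stand below the rest.

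The change between HO and AX plants was then compared between soils. In the interaction of soil and treatment edgeR called 0 of 24 members (background 0.279%), as did DESeq2. An unadjusted p under 0.05 was reached by 6, a threshold to which that background does not apply. GSTU20 had the lowest FDR among the members named here, with a difference of -0.72 ± 0.20 (MSU minus Malaka, FDR = 0.156). It passed without HO-Malaka replicate 1 (-0.87, FDR = 0.0207) and without AX-MSU replicate 1 (-0.90, FDR = 0.0208), and was -0.53 without HO-Malaka replicate 3 (FDR = 0.423) and -0.63 without AX-MSU replicate 2 (FDR = 0.44). GSTF7 (-1.41 ± 0.56, FDR = 0.457), GSTF3 (-1.55 ± 0.61, FDR = 0.454) and GSTF2 (-0.45 ± 0.19, FDR = 0.505) also had differences below 0, without passing. The 95% interval of the difference for GSTF8 lay between -0.30 and 0.29. Between the autoclaved slurries, AX-MSU against AX-Malaka, 0 members passed with either tool (background 0.648%). At an unadjusted p under 0.05 there were 7, again without a share of all genes. Between the live slurries, HO-MSU against HO-Malaka, GSTU20 (-0.96 ± 0.15, FDR = 0.000763) and GSTF9 (-0.57 ± 0.12, FDR = 0.0313) were lower (background 0.193%). GSTF9 had 36.3, 34.6 and 29.8 CPM in HO-MSU plants, against 42.2, 48.3 and 59.5 CPM in HO-Malaka plants. Its call was lost in 6 of 12 fits that left out a library (all HO-MSU replicates, HO-Malaka replicate 3, and AX-Malaka replicates 2 and 3), with FDR values between 0.0509 and 0.255, and under total-count scaling (FDR = 0.233).

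The 20 members that were not tested had at most 12 counts in a library. GSTU14, GSTU15, GSTU21 and GSTF13 had no count in any library, which allows at most 3 counts, or 0.303 CPM in the shallowest library. GSTU9 had 1, 0 and 8 counts in HO-Malaka, 2, 3 and 0 counts in HO-MSU and none in AX libraries. With 3 counts allowed over all AX libraries together and the HO counts taken as exact, that is a ratio of 4.16. GSTU12 had 7 counts in all HO libraries together and none in AX libraries, a ratio of 2.08 on the same terms. Neither ratio is a lower bound, because the spread of the HO counts is left out. GSTU3 (1 count) and GSTL1 (3 counts) were also counted in HO libraries alone. GSTF14 had 25 counts in HO and 8 in AX libraries, GSTU11 8 in HO and 1 in AX, GSTU6 14 in HO and 30 in AX, and GSTU28 23 in HO and 23 in AX libraries. With the filter on low counts left out, edgeR called 0 of these members between HO and AX plants, as did DESeq2; GSTU9 and GSTU12 reached an unadjusted p under 0.05 with edgeR across soils, GSTU9 in Malaka, and GSTF14 and GSTU23 in MSU.

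The genes around the transferases moved little as groups, with exceptions. Beside the calls across soils in the lists that follow, 5.01% of all genes tested rose and 5.16% fell. Of 10 tested genes of glutathione synthesis and turnover 2 rose across soils, GSH2 (glutathione synthetase, 19.4 ± 1.52 CPM in HO and 14.1 ± 1.41 CPM in AX plants, log2FC 0.45, FDR = 0.000578) and GGT1 (a γ-glutamyl transpeptidase, log2FC 0.31, FDR = 0.0138), and 0 fell, whereas GSH1, the first enzyme of synthesis, was at 0.06 ± 0.07. The 8 tested genes of other transferase classes (zeta, theta, dehydroascorbate reductase and TCHQD) had 0 calls across soils with edgeR or DESeq2, and 0 at an unadjusted p under 0.05. Of the 3 vacuolar ABC transporters for glutathione conjugates, ABCC3 rose (log2FC 0.32, FDR = 0.0279) and ABCC2 fell (log2FC -0.25, FDR = 0.0162). The median log2FC of these 3 lists was 0.03, -0.07 and -0.03, beside 0.00 over all genes.

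Of 13 tested genes of the response to xenobiotics, 1 rose (background 5.01%) and 5 fell (5.16%) across soils, with a median of -0.19. CYP81D11, a cytochrome P450 induced by safeners and jasmonate, was at 2.01 ± 0.80 CPM (SD) over 6 HO libraries and 16.1 ± 4.59 CPM over 6 AX libraries (log2FC -3.03, FDR = 4.97e-15). UGT74E2 (-1.98), NAC032 (-0.96), OPR2 (-0.62) and UGT75B1 (-0.57) fell as well, and CYP81D8 rose (1.32, FDR = 0.00518). CYP81D8 averaged 0.528 ± 0.0697 CPM in AX plants and UGT74E2 0.229 ± 0.115 CPM in HO plants. Both means lie below the filter of about 0.699 CPM, so that a difference may have been built into the selection of these 2 genes. The regulators of the xenobiotic response TGA2, TGA5, TGA6 and SCL14 had 0 calls with edgeR or DESeq2 and 0 at an unadjusted p under 0.05. Of 3 tested anthocyanin genes DFR (-1.49, FDR = 1.28e-05) and LDOX (-1.27, FDR = 0.0025) fell, and GSTF12 did not pass. In the aliphatic glucosinolate pathway, 0 of 10 genes passed in Malaka (0 at an unadjusted p under 0.05 and 0 with DESeq2). In MSU 5 fell (background 3.28%), CYP79F1, UGT74C1, BCAT4, MYB29 and MAM1, with log2FC values between -0.79 and -0.40, where GSTU20 also fell. In the interaction 0 of the 10 passed with either tool (4 at an unadjusted p under 0.05). Of the 2 tested camalexin genes CYP71A12 rose (1.41 ± 0.87 CPM in HO and 0.0115 ± 0.0282 CPM in AX plants) and its neighbour CYP71A13 fell (log2FC -1.73, FDR = 0.0141), beside the rise of GSTF6. At its level in AX plants, CYP71A12 could reach the filter only through HO libraries, so that a difference was built into its selection. DESeq2, run without that filter on low counts, called 2 of the 3 genes of this list higher, CYP71A12 and CYP71B15 (PAD3), the last enzyme of the pathway. It did so across soils (875 of all 21420 genes it tested were higher), in Malaka (353 of 20871) and in MSU (472 of 20315).

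Marker levels moved with the treatment as well. Of the 4 leaf markers CA1 was lower in HO plants (log2FC -0.27, FDR = 0.0136, background 5.16%). DESeq2 called 3 of the 4 lower across soils (858 of all 21420 genes it tested), 1 in Malaka (257 of 20871) and 2 in MSU (479 of 20315). Their summed level was between 7636 and 8095 CPM in HO-MSU libraries and between 8676 and 9002 CPM in AX-MSU libraries, without overlap. It was between 8202 and 9136 CPM in HO-Malaka libraries and between 9017 and 9317 CPM in AX-Malaka libraries, with overlap. Of 4 tested genes of touch and handling ZAT10 was higher (log2FC 1.68, FDR = 5.11e-05, background 5.01%) and TCH4 lower (log2FC -0.49, FDR = 0.0064, background 5.16%). The 7 genes of that list summed to between 31.8 and 51.1 CPM in HO and between 23.9 and 68.9 CPM in AX libraries. Their part in the changes of the transferases was not tested.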

How the data were processed

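The 12 libraries were single-end, stranded reads of 50 bases from rosette RNA. Per the labels and the methods of the study, Trimmomatic 0.39 was used for trimming, STAR for mapping to TAIR10 and featureCounts for counting per gene. The authors deposited whole-number counts, not normalized, one column per library, and these counts were used as they stand. The handling of multi-mapping reads and of strand is not given in the sources used here.

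Genes were kept by filterByExpr (minimum count 10, minimum total 15, groups of 3) and tested in R 4.3.3 with edgeR 4.0.16 (TMM, glmQLFit and glmQLFTest). HO and AX plants were compared across soils with soil as a term, and within soils, between soils and for the interaction as contrasts of the 4 groups. The study used DESeq2, which was an alternative here (1.42.0). The other alternatives were RLE factors, total counts, no filter, at least 0.5 CPM in 1 library, no ribosomal RNA and organelle genes, a replicate block, each soil alone, no soil term, and each library left out. The code was tested on simulated data. SE is the log2FC divided by the root of F. Reads are not independent molecules, so floors cover counting error only.

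Full values are given for the members that passed in HO against AX or in the interaction, and for others by group. The members, the gene lists and this rule were chosen with earlier results of these data known. Loci, exons, 50-base windows and promoters were read from TAIR10 sequence and the RefSeq gene models on it. Figures were drawn with matplotlib 3.10.9.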

Additional observations from a re-analysis of the deposited data

How the results depend on the processing

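Of 77 recomputed member counts, apart from fits without a library, 67 stayed within 1.5 times of the values above and 10 did not. With an absolute log2FC of at least 1 required, members lower in HO plants numbered 1 across soils, 0 in Malaka and 1 in MSU. The single member lower in Malaka became 0 under total counts and with the 6 libraries of the soil alone, and 2 with the replicate block. The interaction gave 1 member without the filter on low counts and 1 with the replicate block, GSTU20 in both, AX-MSU against AX-Malaka gave 1 (GSTU7) without the filter, and HO-MSU against HO-Malaka gave 1 under total counts. Total counts moved the median log2FC of all genes to -0.10 across soils, -0.16 in MSU and -0.13 in the interaction. Under it GSTF8 was at -0.41 in Malaka (edgeR FDR = 0.283) and -0.53 in MSU (FDR = 0.0547). Whether the replicate numbers pair the samples cannot be decided here. The correlations of same-numbered HO and AX libraries lay between -0.03 and 0.13, and those of differently numbered ones between -0.13 and 0.09. With the replicate block 501 genes were higher and 445 lower in Malaka, against 438 and 333 without it. The block brought GSTU17 in Malaka to an edgeR FDR of 0.0471. For the 11 named members and the ratios, 332 of 339 other values stayed on their side of the threshold, 4 lost and 3 gained a call, and 0 changed sign. Without any 1 library, members numbered 5 higher in each fit and between 4 and 7 lower across soils, between 5 and 6 higher and between 0 and 2 lower in Malaka, between 3 and 4 higher and between 3 and 5 lower in MSU, between 0 and 1 in the interaction, between 0 and 1 in AX-MSU against AX-Malaka, and between 1 and 3 in HO-MSU against HO-Malaka. With 3 boxes a group and at most 12 counts in 20 members, small changes in these were not detectable at this depth.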
